A study of Mus musculus with 12 samples.

Results

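Cholesterol synthesis and sterol handling was followed through 30 genes in mouse regulatory T cells (Treg), a CD4 T cell lineage that dampens immunity. The genes were chosen by name as the enzymes, sensors, receptors and carriers of the pathway, with earlier results of these data known. Each was read from its brightest probe. All 30 were found among the 20811 genes named on the array, and all 30 were well above background on each of the 12 arrays. They were 17 sterol enzymes, 5 regulators of the sterol-sensing SREBP pathway, 4 LXR receptors and exporters, and 4 genes of intracellular transport and storage.

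RNA was measured on 12 one-colour arrays in 4 groups of 3, all from C57BL/6 reporter mice. Of these, 3 groups came from MC38 tumours, a colon carcinoma line grown under the skin of mice of its own strain and taken at 2 weeks, with tumours pooled before the cells were sorted. IL10+ and IL10- tumour Treg came from VERT-X mice, in which EGFP reports Il10, and were gated on CD25 and on CD120b at positive or low levels. Total tumour Treg and spleen Treg came from FoxP3-EGFP mice and were gated on EGFP, and the spleens were those of mice without tumours. Every sort also required CD45, CD3 and CD4 with low CD11b. The submitters describe 3 experiments per population, with tumours pooled, so p-values measure the spread between these pooled samples and not between single animals.

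Cells make cholesterol from acetyl-CoA through the mevalonate pathway and then a chain of sterol intermediates. When membrane sterol is low, the escort protein Scap carries SREBP factors to the Golgi, where they are cut and sent to the nucleus to switch on these enzymes. The Insig proteins hold Scap back when sterol is plentiful. Oxysterols, which are oxidised cholesterol, instead activate the LXR nuclear receptors, and these switch on cholesterol exporters such as Abca1 and Abcg1. In T cells the mevalonate pathway is known to support activation and proliferation.

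The promoters of 5 genes on which the results turn are shown first, from RefSeq on build GRCm38.p6. Each runs from 250 bases before to 50 bases after the transcription start. Hmgcs1, Cyp51, Hsd17b7 and Insig1 are shown because they rose together in tumour Treg, and Abca1 because it fell. Capitals mark CCAAT, the box bound by NF-Y, and TCACNCCAC, a sterol-element-like word, on either strand, so a CCAAT on the other strand reads ATTGG. The windows are chr13:119690101-119690400 on the plus strand for Hmgcs1, chr5:4104648-4104947 on the minus strand for Cyp51, chr1:169969156-169969455 on the minus strand for Hsd17b7, chr5:28071162-28071461 on the plus strand for Insig1 and chr4:53159846-53160145 on the minus strand for Abca1.
Hmgcs1: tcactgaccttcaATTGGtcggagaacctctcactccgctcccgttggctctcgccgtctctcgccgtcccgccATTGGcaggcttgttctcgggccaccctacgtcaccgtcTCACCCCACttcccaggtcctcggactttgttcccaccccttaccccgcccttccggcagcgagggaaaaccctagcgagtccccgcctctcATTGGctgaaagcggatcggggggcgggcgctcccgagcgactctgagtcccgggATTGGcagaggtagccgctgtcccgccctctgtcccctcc
Cyp51: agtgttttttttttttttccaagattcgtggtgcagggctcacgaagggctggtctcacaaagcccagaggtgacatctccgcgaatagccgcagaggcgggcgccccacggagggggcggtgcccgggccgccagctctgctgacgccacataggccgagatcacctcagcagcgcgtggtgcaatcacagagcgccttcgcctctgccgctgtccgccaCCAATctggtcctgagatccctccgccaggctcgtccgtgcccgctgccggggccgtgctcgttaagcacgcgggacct
Hsd17b7: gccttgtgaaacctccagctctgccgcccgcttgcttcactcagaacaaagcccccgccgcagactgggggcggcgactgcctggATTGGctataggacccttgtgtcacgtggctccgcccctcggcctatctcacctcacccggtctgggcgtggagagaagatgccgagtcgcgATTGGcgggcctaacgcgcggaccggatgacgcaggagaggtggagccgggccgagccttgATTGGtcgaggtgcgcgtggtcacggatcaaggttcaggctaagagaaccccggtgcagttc
Insig1: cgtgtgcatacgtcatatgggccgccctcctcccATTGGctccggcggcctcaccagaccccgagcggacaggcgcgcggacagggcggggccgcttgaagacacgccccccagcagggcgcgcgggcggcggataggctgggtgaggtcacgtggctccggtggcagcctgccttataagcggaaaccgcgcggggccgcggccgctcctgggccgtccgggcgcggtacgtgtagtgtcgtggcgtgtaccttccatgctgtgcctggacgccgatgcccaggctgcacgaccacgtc
Abca1: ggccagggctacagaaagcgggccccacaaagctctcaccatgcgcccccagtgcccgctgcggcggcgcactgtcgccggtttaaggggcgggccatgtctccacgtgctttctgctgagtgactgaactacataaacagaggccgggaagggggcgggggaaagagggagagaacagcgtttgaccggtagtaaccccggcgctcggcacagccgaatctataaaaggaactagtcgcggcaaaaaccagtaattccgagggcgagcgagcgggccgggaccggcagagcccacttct
CCAAT was found 4 times in the Hmgcs1 window, 3 times in Hsd17b7, and 1 time each in Cyp51 and Insig1. The Abca1 window held neither word. TCACNCCAC was found only in Hmgcs1 among the members searched, starting at base 114 from the 5′ end, which is 137 bases upstream of the start.

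Promoter windows were searched for 24 of the 30 genes, and 6 of the 24 had several. All 11 searched genes that rose in total tumour Treg held a CCAAT in at least 1 window, as did 1 of the 4 that fell and 7 of the 9 that were not called. The 1 that fell was the enzyme Tm7sf2. Whatever their call, 13 of the 14 searched sterol enzymes held a CCAAT, so direction and role were not separated here. CCAAT stands in 41.06% of all 27025 genes with a window, and in 37.41% of all 32851 windows. TCACNCCAC stands in 1.44% of genes and in 1.24% of windows. A match describes the letters in the window and not a bound site, and no match says only that the letters are not there.

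Values below are levels, meaning log2 of the processed probe signal minus the 75th percentile of that array, so a difference of 1 is a 2-fold change. A difference was called when limma's adjusted p over 15536 features was under 0.05. Between 42.1% and 65.2% of probes lay well above background, and the 75th percentile of the signal ran from 92.3 on IL10+ replicate 3 to 606 on IL10+ replicate 1. The T cell gene Cd3d lay from 6.52 to 8.01 on all 12 arrays. The Foxp3 probe did not follow the labels. It was well above background on all 6 VERT-X arrays, with levels from 2.64 to 4.65, and on none of the 6 FoxP3-EGFP arrays. Spleen replicate 2 also stood apart, with Il2ra at -3.90 against 0.72 and 1.27 on the other spleen arrays, and Ctla4 at -0.89 against 3.12 and 3.29. VERT-X replicates 1 of both fractions were low for Cd3e, with 2.08 in IL10- and 1.73 in IL10+ against 4.80 to 5.87 on the other 4 VERT-X arrays. The 6 FoxP3-EGFP arrays lay between these for Cd3e, from 2.62 to 3.42, so replicates 1 were nearer to them.

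**Figure D1:**
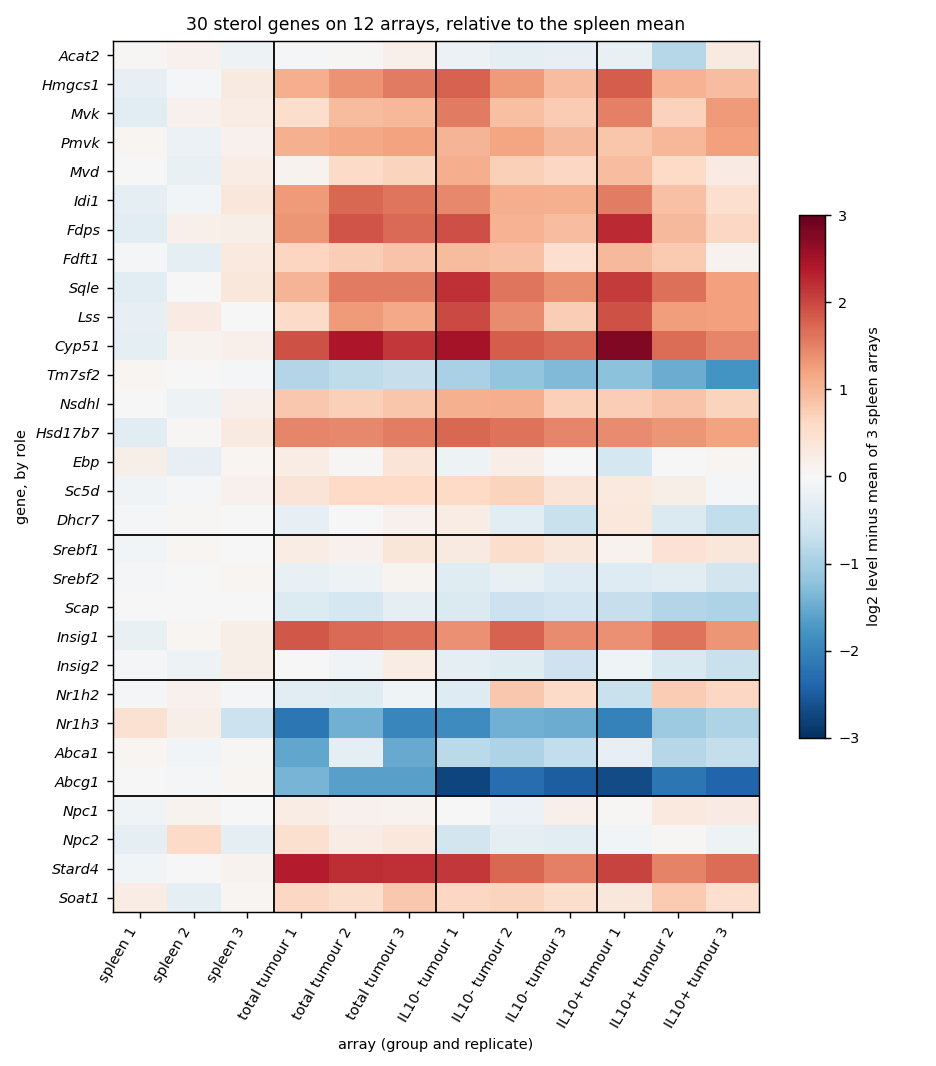
Level of each of the 30 genes on each of the 12 arrays, as the log2 level minus the mean of the 3 spleen arrays (colour), with genes in rows by role and arrays in columns by group and replicate. Most sterol enzymes are red on all tumour arrays, and Tm7sf2, Nr1h3, Abca1 and Abcg1 are blue there.

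Total tumour Treg were set against spleen Treg to ask how sterol genes differ between Treg of a tumour and of a lymphoid organ. Of the 30 genes, 15 rose and 5 fell in tumour Treg. Most genes of the synthesis chain rose, with the largest enzyme rise in Cyp51, 4.45-fold, while the LXR receptor Nr1h3 and the exporters Abca1 and Abcg1 fell. The 20 called genes are 66.7% of the members, against 42.3% of all features called in this comparison. At an unadjusted p under 0.05 there were also 20 members, against 50.2% of all features. By direction, 50% of members rose and 16.7% fell, against 22% and 20.3% of all features. Because the list was drawn up with earlier results of these data known, these shares describe it and are no test of the pathway. The median difference was 0.49 over the 30 genes and -0.01 over all features. Levels of the 2 groups did not overlap for 23 of the 30 genes, a state reached by 65.8% of all features, so that count says little about the members.

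**Figure D2:**
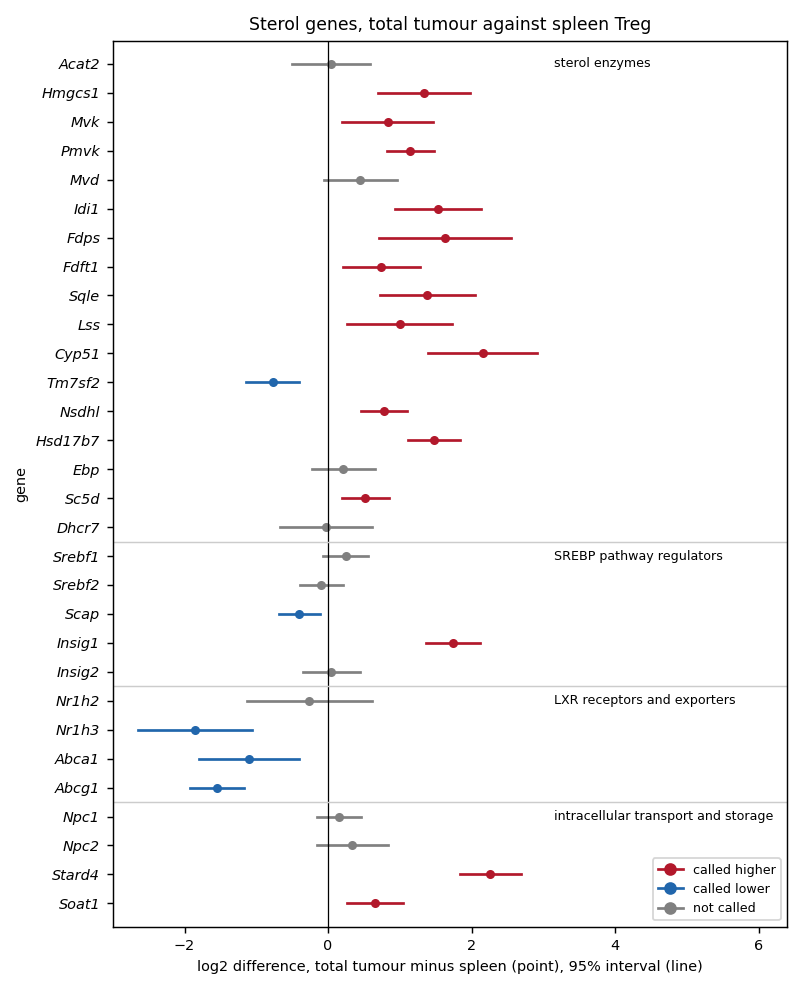
Difference between total tumour and spleen Treg for each of the 30 genes (point) with its 95% interval from limma (line), on the log2 scale, n = 3 arrays a group. Red genes were called higher, blue genes lower and grey genes were not called. Enzymes lie mostly right of 0 and the LXR and exporter genes left of it.

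Of 17 sterol enzymes 12 were called higher and 1 lower, with steps not called at both ends of the chain. As the mean over the probes of a gene, Lss, Mvk, Fdps, Fdft1 and Nsdhl were no longer called and Sc5d was lower, at -0.60. Cyp51, the lanosterol demethylase, had levels of 0.29, 0.79 and 0.48 on the total tumour arrays and -1.89, -1.52 and -1.48 on the spleen arrays (probe at chromosome 5, 4089242 to 4089301 of mm8). Every tumour array lay above every spleen array, and the difference was 2.15 ± 0.34 (SE, n = 3 against 3, adjusted p = 0.00081). Fdps, which makes farnesyl diphosphate, had levels of 3.51, 4.07 and 3.89 in tumour and 1.88, 2.34 and 2.37 in spleen (chromosome 3, 89180817 to 89180957 of mm8). Its groups did not overlap either, with a difference of 1.63 ± 0.41 (SE, adjusted p = 0.0103). A second Fdps probe gave -0.19 and was not called, so the rise of Fdps rests on 1 of its 2 probes.

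Of the 6 genes from the thiolase to the isomerase, 4 rose. Hmgcs1, which condenses acetyl groups into HMG-CoA, had levels of 2.78, 3.04 and 3.24 in tumour and 1.43, 1.66 and 1.96 in spleen, and rose by 1.34 ± 0.29 (SE, adjusted p = 0.00461). All 3 of its probes were higher, from 1.34 to 1.80. The files place the probe used on an unlocalised piece of chromosome 13 of mm8, so its exact position was not settled. The mevalonate kinase Mvk rose by 0.83 ± 0.29 (SE, adjusted p = 0.0401) and the phosphomevalonate kinase Pmvk by 1.15 ± 0.15 (SE, adjusted p = 0.000239). Idi1, which isomerises the isoprene unit, rose by 1.54 ± 0.27 (SE, adjusted p = 0.0014). The files place its probe on chromosome 2 of mm8 while the RefSeq promoter lies on chromosome 13, so which copy the probe reads was not settled. Acat2, the thiolase that opens the chain, differed by 0.04 (95% interval -0.50 to 0.58), and the decarboxylase Mvd by 0.45 (-0.06 to 0.96), neither of them called.

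The squalene steps also moved up. Squalene synthase Fdft1 rose by 0.74 ± 0.24 (SE, adjusted p = 0.0321), squalene epoxidase Sqle by 1.38 ± 0.30 (SE, adjusted p = 0.00432) and lanosterol synthase Lss by 0.998 ± 0.33 (SE, adjusted p = 0.0339). Mvk, Fdft1 and Lss lay close to the threshold. Each also had 1 other probe that was not called (0.37 for Mvk, 0.66 for Fdft1 and 0.27 for Lss), and the remaining Lss probe was called at 1.14.

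Later steps were mixed. Hsd17b7, a sterone reductase, rose by 1.48 ± 0.16 (SE, adjusted p = 0.000105), the C4 decarboxylase Nsdhl by 0.78 ± 0.15 (SE, adjusted p = 0.00204) and the lathosterol desaturase Sc5d by 0.52 ± 0.14 (SE, adjusted p = 0.0157). Probes disagreed for Nsdhl, where 1 of 4 fell by 1.35, and for Sc5d, where the second of 2 probes fell by 1.71 with an adjusted p of 0.000878. The isomerase Ebp (0.21, 95% interval -0.23 to 0.65) and the last reductase Dhcr7 (-0.03, -0.67 to 0.61) were not called.

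Tm7sf2, a sterol C14 reductase, was the only enzyme among the 17 that fell. Its levels were 0.34, 0.45 and 0.52 on the total tumour arrays and 1.27, 1.19 and 1.17 on the spleen arrays (chromosome 19, 6062882 to 6062941 of mm8). Tumour arrays were all lower than spleen arrays, by 0.77 ± 0.16 on the log2 scale (SE, adjusted p = 0.00409), a 1.71-fold fall.

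**Figure D3:**
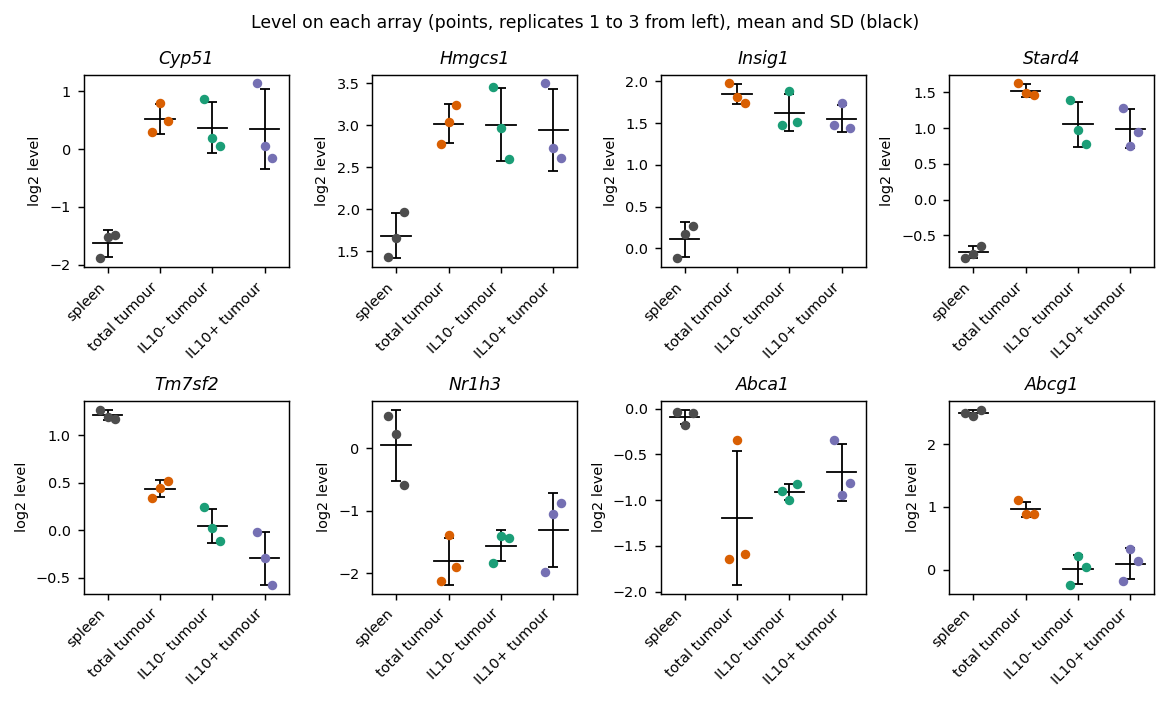
Log2 level on each array (points) with the mean and SD of each group of 3 (black) for 8 genes. For Cyp51, Hmgcs1, Insig1 and Stard4 all 9 tumour arrays lie above the 3 spleen arrays, and for Tm7sf2, Nr1h3, Abca1 and Abcg1 all 9 lie below.

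Among the SREBP regulators, Insig1 rose, Scap fell and the brightest probes of the SREBP genes were not called. Insig1 had levels of 1.98, 1.81 and 1.74 in total tumour and -0.12, 0.17 and 0.27 in spleen (chromosome 5, 28408493 to 28408552 of mm8). Its groups did not overlap, and it rose by 1.74 ± 0.17 (SE, adjusted p = 4.49e-05), a 3.34-fold change that its second probe shared at 2.13. Scap had levels of 3.96, 3.85 and 4.10 in tumour and 4.38, 4.36 and 4.37 in spleen, and fell by 0.40 ± 0.13 (SE, adjusted p = 0.0301). Every tumour array was lower than every spleen array for Scap, by 1.32-fold on average. Srebf1 differed by 0.25 (95% interval -0.07 to 0.56), Srebf2 by -0.09 (-0.39 to 0.20) and Insig2 by 0.05 (-0.35 to 0.44), none of them called. The 4 Srebf2 probes disagreed, with 1 other probe called higher at 1.48 (adjusted p = 0.000582). As the mean over its probes Srebf2 was called higher, at 0.64 (adjusted p = 0.0324). In all, 1 regulator of 5 rose and 1 fell.

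LXR receptors and exporters fell in 3 of 4 cases and rose in none. Nr1h3, the LXR-alpha receptor, had levels of -2.13, -1.39 and -1.90 on total tumour arrays and 0.51, 0.22 and -0.58 on spleen arrays (chromosome 2, 90985117 to 90985176 of mm8). The groups did not overlap, although spleen replicate 3 was lower than the other 2, and the difference was -1.86 ± 0.36 (SE, adjusted p = 0.00244). Abcg1, an exporter to lipoprotein particles, had levels of 1.11, 0.89 and 0.89 in tumour and 2.504, 2.46 and 2.56 in spleen (chromosome 17, 30842647 to 30842706 of mm8). Its spleen arrays were tight and all above the tumour arrays, with a difference of -1.55 ± 0.17 (SE, adjusted p = 9.62e-05), a 2.92-fold fall. Abca1, the exporter that loads lipid-poor apolipoprotein, had levels of -1.64, -0.35 and -1.59 in tumour and -0.03, -0.17 and -0.05 in spleen. Total tumour replicate 2 lay near the spleen arrays for Abca1, and the fall was 1.11 ± 0.31 on the log2 scale (SE, adjusted p = 0.0174). Abca1 was no longer called without total tumour replicate 1 or without replicate 3. Nr1h2, the LXR-beta receptor, differed by -0.26 (95% interval -1.13 to 0.61) and was not called.

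For transport and storage, 2 of 4 genes rose. Stard4, a soluble protein that moves cholesterol between membranes, had levels of 1.63, 1.49 and 1.46 on total tumour arrays and -0.81, -0.76 and -0.64 on spleen arrays. It had the largest rise of the 30 genes, 2.26 ± 0.19 (SE, adjusted p = 1.92e-05), a 4.80-fold difference, and all 3 of its probes were called higher, from 1.01 to 2.26. Soat1, which esterifies cholesterol for storage, had levels of 3.04, 2.94 and 3.21 in tumour and 2.64, 2.11 and 2.48 in spleen. Its groups did not overlap and it rose by 0.65 ± 0.18 (SE, adjusted p = 0.0142), with 1 of its 3 probes called. The lysosomal exporters Npc1 (0.15, 95% interval -0.15 to 0.46) and Npc2 (0.34, -0.16 to 0.83) were not called. A second Npc1 probe gave -0.75 and was not called either.

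Markers of other cells moved with this comparison. All 8 fibroblast markers were higher in total tumour, with a mean level over the list of 1.97 to 2.42 on tumour arrays and -5.26 to -2.89 on spleen arrays, and the brightest, Dcn and Col3a1, at 5.75 and 5.33 in tumour. Pdgfra, Pdgfrb and Lum were not well above background on any spleen array. Of 11 macrophage and monocyte markers 10 were higher (median 2.24), from 3.1 to 4.11 on tumour arrays against -0.05 to 1.32 on spleen arrays, led by Lyz2 and C1qb at 6.65 and 5.65 in tumour. All 7 B cell markers were lower, from -4.67 to -4.24 on tumour arrays against 1.02 to 1.91 on spleen arrays, and Cd79a, Pax5, Blk and Cr2 were not well above background on any total tumour array. Cd79b was the brightest of them in spleen, at 5.26. Of 5 epithelial markers 3 passed the filter and 2 of those were higher, with Epcam and Krt18 the brightest at 0.60 and 0.15 in tumour. None of 6 T cell markers was called, with Cd3d and Cd2 the brightest at 7.43 and 6.83 in tumour. Of 6 Treg markers 3 were higher, with Tnfrsf18 and Tnfrsf4 the brightest. The mean level over the Treg list was 3.05 to 3.51 on total tumour arrays. On spleen replicate 2 it was -0.70, against 2.43 and 2.52 on the other spleen arrays. The part of these other cells in the sterol gene differences was not tested. In RNA from sorted pools, fewer cells of a type and less RNA per cell cannot be told apart.

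Slide also moved with group. Spleen arrays shared a slide with total tumour replicate 3 alone, and on that slide the differences were 2.12 for Cyp51, 1.64 for Insig1, 2.20 for Stard4, -1.62 for Abcg1, -1.95 for Nr1h3 and -0.69 for Tm7sf2, each with 1 tumour array against 3. With slide as a block, the difference of each of the 30 genes was this same difference of 1 tumour array from the spleen arrays. With slide as a block 13 of the 30 genes and 3384 of all features were called, against 20 and 6571 without it. Of the 7 genes lost, Lss (1.14), Mvk (1.01), Fdft1 (0.85), Sc5d (0.59), Soat1 (0.80) and Abca1 (-1.50) had larger differences under the block and Scap (-0.27) a smaller one. Without spleen replicate 2, 14 genes rose and 4 fell, with Mvk, Fdft1 and Scap lost and Npc2 gained, and 5432 of all features were called. With normexp background correction 6 genes and 1866 of all features were called, the genes being Cyp51, Hsd17b7, Insig1, Stard4, Tm7sf2 and Abcg1.

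The VERT-X tumour arrays lay on the same side of spleen for most of these genes. Over all 9 tumour arrays against the 3 spleen arrays, 14 of the 30 genes were wholly above and 5 wholly below, against 22.2% and 23.7% of all features. Enzymes accounted for 10 of those above and 1 of those below (Tm7sf2), and LXR and exporter genes for 3 of those below. Of the 12 enzymes that rose in total tumour Treg, Fdft1 and Sc5d had at least 1 VERT-X array within the spleen range. This is a description of the arrays, with total tumour values also used in the comparison above.

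The 3 tumour groups were then set against each other, to ask whether IL10-producing Treg differ in sterol genes. None of the 30 genes was called between IL10+ and IL10- tumour Treg by limma, where 0.0515% of all features were (0.00644% higher and 0.0451% lower), and 1 of 30 had an unadjusted p under 0.05 (4.62% of all features). The median difference was -0.07 over the members and -0.04 over all features. With normexp background correction the members' median was -0.94, and that over all features -0.03, with no member called. In the fit without that correction the 95% intervals of the 30 differences lay between -0.97 and 1.05, so differences of up to that size lay within the intervals of the most variable genes. Among genes that rose in tumour, Pmvk had an interval of -0.37 to 0.29 and Insig1 one of -0.45 to 0.30. Cyp51 had a wider interval of -0.79 to 0.73 and Fdps one of -0.95 to 0.89.

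**Figure D4:**
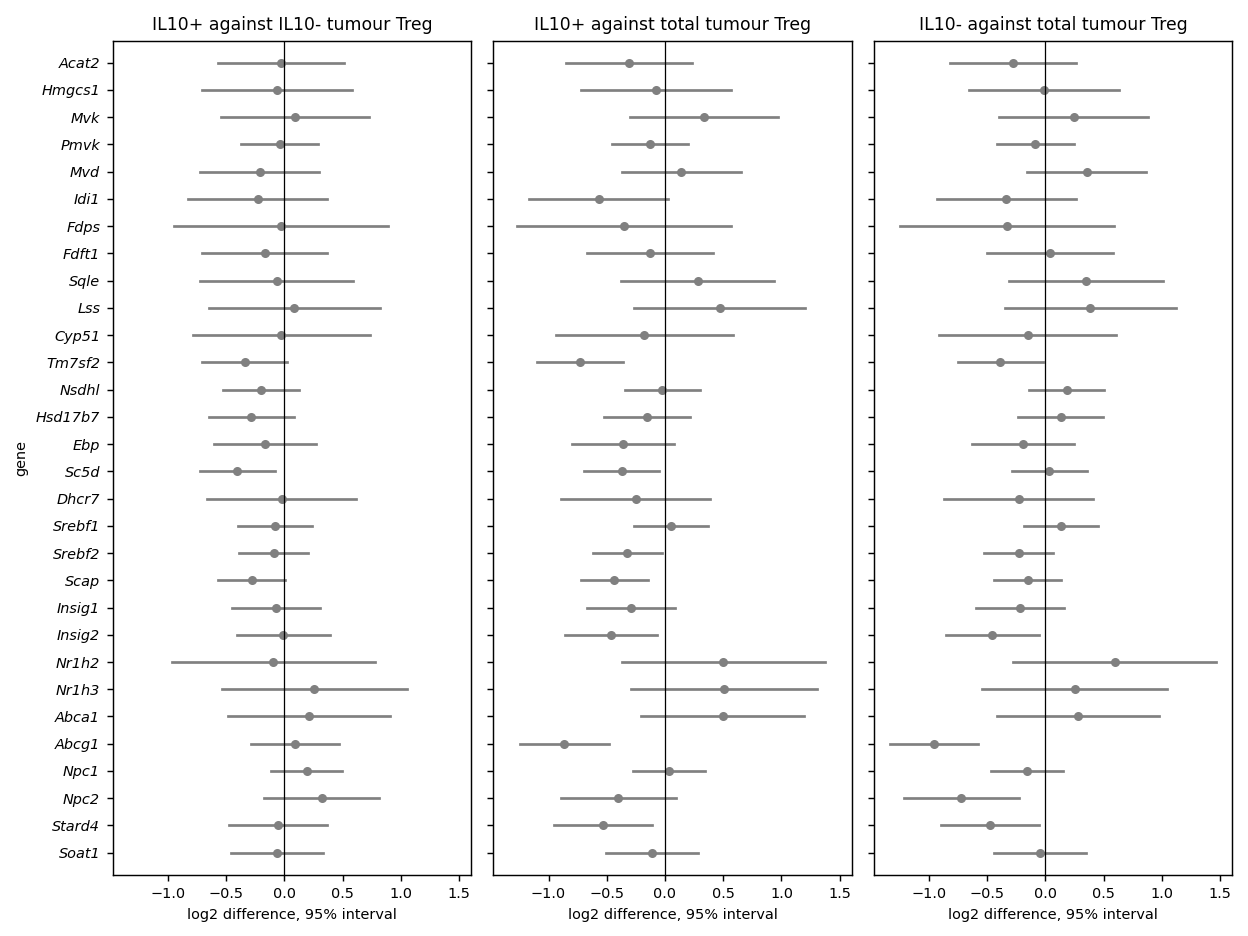
Differences between the 3 tumour groups for each of the 30 genes (point) with 95% intervals from limma (line), on the log2 scale, n = 3 arrays a group. All points are grey because none was called, and Abcg1 lies left of 0 in both comparisons with total tumour Treg.

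The genes nearest to a difference between the IL10 fractions were Sc5d, Scap and Tm7sf2, and all were lower in IL10+ cells. Sc5d had levels of 2.60, 2.48 and 2.28 in IL10+ and 2.91, 2.97 and 2.69 in IL10- (difference -0.41 ± 0.14, SE, adjusted p = 0.979). These groups did not overlap, which held for 4 of 30 members and 7.39% of all features. Scap had levels of 3.68, 3.48 and 3.45 in IL10+ and 3.94, 3.72 and 3.80 in IL10- (difference -0.28 ± 0.13, SE, adjusted p = 1). Tm7sf2 had levels of -0.01, -0.29 and -0.57 in IL10+ and 0.24, 0.02 and -0.11 in IL10-, so its groups overlapped (difference -0.34 ± 0.16, SE, adjusted p = 1). With normexp the differences of Sc5d and Scap were -1.39 and -1.38, each with an adjusted p of 0.169 by limma. On the slide that held 1 IL10+ array beside all 3 IL10- arrays the differences were -0.38 for Sc5d and -0.34 for both Scap and Tm7sf2.

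Neither fraction differed from total tumour Treg in any of the 30 genes by limma at an adjusted p under 0.05, where 0.2% of features were called for IL10+ (0.0708% higher and 0.129% lower) and 0.0515% for IL10- (0.0322% higher and 0.0193% lower). Groups did not overlap for 10 members for IL10+ (23.1% of all features) and 6 for IL10- (27.7%). At an unadjusted p under 0.05 there were 7 members for IL10+ (16.8% of all features) and 5 for IL10- (15.5%). These comparisons also set VERT-X against FoxP3-EGFP mice and 1 sorting gate against another, which cannot be told apart from IL10 status. Abcg1 came closest. Its levels were -0.17, 0.33 and 0.14 in IL10+, -0.24, 0.22 and 0.04 in IL10- and 0.89 to 1.11 in total tumour. Both fractions lay wholly below total tumour, by 0.86 ± 0.17 for IL10+ (SE, adjusted p = 0.076) and 0.96 ± 0.17 for IL10- (SE, adjusted p = 0.0515), while all 9 tumour arrays lay below spleen. Tm7sf2 differed by -0.73 ± 0.16 in IL10+ (SE, adjusted p = 0.0962). Npc2, with levels of 4.61, 4.87 and 4.85 in IL10- and 5.64, 5.38 and 5.47 in total tumour, differed by -0.72 ± 0.22 in IL10- (SE, adjusted p = 0.168).

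VERT-X replicates 1 lay apart from the other VERT-X arrays for several genes. Nr1h2 lay at 2.67 in IL10- replicate 1 and 2.38 in IL10+ replicate 1, against 3.63 to 3.87 on the other 4 VERT-X arrays and 2.70 to 2.94 in total tumour. The mean level of the 12 enzymes that rose in tumour was 2.32 and 2.26 on those replicates 1, against 1.62 to 1.97 on the other 4 and 1.76 to 2.07 in total tumour. On the same 2 arrays the mean level over the fibroblast list was 3.28 and 3.63, against 1.34 to 2.53 on the other 4 VERT-X arrays, and Foxp3 was 3.03 and 2.64, against 4.11 to 4.65. Their part in the enzyme levels was not tested. Without both replicates 1, limma called 6 members for IL10+ against total tumour (Nr1h2 at 0.96 higher, and Tm7sf2, Idi1, Abcg1, Stard4 and Scap from -0.87 to -0.51) and 3 for IL10- (Nr1h2 at 0.95, Abcg1 at -0.83 and Stard4 at -0.64). In those fits 1783 and 1231 of all features were called, against 31 and 8 with all arrays. Without IL10+ replicate 1 alone, 1 member was called in each comparison, Tm7sf2 for IL10+ and Abcg1 for IL10-, with 497 and 187 of all features.

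The rest of the pathway was read through 26 further genes, of which 8 rose and 3 fell in total tumour against spleen Treg, 42.3% of the list and equal to the share of all features. With slide as a block 6 of the 26 and 3384 of all features were called, and with normexp 3 of the 26 and 1866 of all features. In the main fit 6571 of all 15536 features were called. Ch25h, which makes the oxysterol 25-hydroxycholesterol, had levels of 0.77, 1.77 and 1.21 in tumour and was not well above background on any spleen array, at least 39.5-fold higher (adjusted p = 6.59e-07). Cyp7b1, which hydroxylates oxysterols further, had levels of -1.32, -0.92 and -1.14 in tumour and was likewise not well above background in spleen, at least 7.6-fold higher (adjusted p = 0.000129). Mylip, a ubiquitin ligase and LXR target, had levels of -0.27, -0.14 and -0.41 in tumour and 2.31, 2.996 and 2.49 in spleen. It fell by 2.87 ± 0.19 on the log2 scale (SE, adjusted p = 5.38e-06), with no overlap between groups. Among the others called were Tmem97 (2.34), Msmo1 (1.46) and Scarb1 (1.26), all higher, and Mbtps1 (-0.62), which was lower and whose 3 probes disagreed. Msmo1 and Mbtps1 were no longer called with slide as a block (adjusted p = 0.0644 and 0.233), and neither they nor Tmem97 and Scarb1 with normexp.

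Between the IL10 fractions none of these 26 genes was called either. The smallest p belonged to Gramd1b, a sterol carrier between membranes, with levels of 0.72, 1.24 and 0.80 in IL10+ and 1.47, 1.75 and 1.56 in IL10- (difference -0.67 ± 0.21, SE, adjusted p = 0.844). Its groups did not overlap, which held for 3 of these 26 genes, Erg28 among them, and for 7.39% of all features. Erg28, a scaffold of the C4 demethylation complex that the files name 0610007P14Rik, had levels of 3.78, 3.86 and 3.91 in IL10+ and 4.23, 4.18 and 3.94 in IL10- (difference -0.27 ± 0.13, SE, adjusted p = 1).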

How the data were processed

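RNA was measured on 12 one-colour Agilent mouse arrays. The deposited scanner files give an intensity per spot from Agilent Feature Extraction, background-subtracted and detrended within each array, per the file headers. Per the labels the RNA was biotin-labelled, whereas the file headers describe a single-channel scan; this was not settled and touches no value. The deposited value table is on a log10 scale, judged by setting it against the processed intensity (r from 0.995 to 0.9999); how it was normalized is not stated in the sources used, and it served as an alternative.

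Outlier spots (58 to 183 an array) and control spots were left out, and 43379 spots were averaged to 41174 probes, which took their gene names from the RefSeq table of GRCm38.p6 (23374 by accession, 6733 by symbol, 2919 by synonym). Positions of probes come from the files, on mm8, and were not assigned to exons here. The brightest probe stood for a gene, and 15536 features well above background on at least 3 arrays were fitted. Levels are log2 of the processed intensity minus the array's 75th percentile. The two-sided moderated test of limma 3.58.1, run under R 4.3.3, fitted all 12 arrays in 1 model with 4 contrasts, with Benjamini-Hochberg adjustment over all features. "Well above background" is the scanner's own flag. Where a group was dark, the fold is against the lowest signal well above background on each array, or the probe's own if higher. The number of arrays limits precision. The steps were tested on simulated data.

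The members and lists were chosen with earlier results of these data known. By a written rule, array values are given for the 2 largest called rises and falls of each role in tumour against spleen, any member called between tumour groups (none), the 3 members with the smallest p between the IL10 fractions, and the other pathway genes with the smallest p (4 and 2). Cell type lists are named by their 2 brightest genes. Some of the genes that this rule or the counts take in are not reported here by name. Array values of Hmgcs1, Abca1, Nr1h2 and Npc2, and the promoters shown, were chosen after values were seen. Plots used matplotlib 3.10.9 under Python 3.11.15.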

Additional observations from a re-analysis of the deposited data

How the results depend on the processing

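In total tumour against spleen Treg 20 members were called. This fell to 6 with normexp background correction, also with the dimmest array left out (6), and to 13 with slide as a block, while features called fell from 6571 to 1866, 1834 and 3384. The count lay between 14 and 20 when 1 array was left out, and that of features between 5079 and 7168. The mean over the probes of a gene gave 16 members and 6232 features. Lss, Mvk, Fdps, Fdft1 and Nsdhl were lost and Srebf2 was gained. Under normexp the median SD of the members rose from 0.134 to 0.411 in total tumour and from 0.297 to 0.926 in IL10+ arrays, and fell from 0.206 to 0.199 in IL10- and from 0.187 to 0.175 in spleen arrays. Of the 20 genes, 19 kept their direction and 6 kept their call in all 24 alternatives. The exception in direction was Sc5d, at -0.60 as the mean over its probes (adjusted p = 0.0352; lowest 0.0101 and highest 0.818 over its alternatives). The replicate block gave 18 members, without Mvk and Fdft1, and 6391 features, and changed no call of a member in the other comparisons. Arrays of IL10+ and IL10- cells with the same number deviated together with r = 0.412, 0.43 and -0.237, so the numbers were not taken as pairs. The 12 enzymes that rose averaged 2.32, 1.97 and 1.72 on IL10- replicates 1 to 3, and 2.26, 1.78 and 1.62 on IL10+. No fit paired these fractions alone, so their intervals may hold spread shared between equal numbers, which was not tested.

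Among genes not called, Acat2 turned to -0.072 with normexp (with or without the dimmest array), -0.013 with quantile normalization and -0.043 with the value table, and ranged from -0.038 to 0.108 without 1 array. Insig2 turned to -0.25 with normexp (with or without the dimmest array) and ranged from -0.039 to 0.137 without 1 array. Dhcr7 turned to 0.13 and Srebf2 to 0.089 with slide as a block, and Dhcr7 ranged from -0.116 to 0.065 without 1 array. The mean over probes gave 0.64 for Srebf2, then called higher (adjusted p = 0.0324), and -0.30 for Npc1. Of the 26 other pathway genes between 3 and 15 were called, against 11, while features called lay between 1834 and 8249, against 6571.

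IL10+ against IL10- stayed at 0 members in all alternatives, but its sizes did not stay: normexp moved the members' median from -0.07 to -0.94, Sc5d from -0.41 to -1.39 and Scap from -0.28 to -1.38. With the dimmest array also left out Sc5d was -0.98 and Scap -0.90. The cause was not tested. Each fraction against total tumour went from 0 to 1 member (Abcg1) when features had to be well above background on all 12 arrays. Features called under that filter were 122 for IL10+ and 131 for IL10-, against 31 and 8 in the main fit. The members called were 6 and 3 without both VERT-X replicates 1, with 1783 and 1231 features. Without 1 array they were between 0 and 1, with 2 to 497 features for IL10+ and 2 to 187 for IL10-. The outlier spots, the pair of VERT-X arrays and the dimmest array were alternatives chosen after seeing the data. With 3 arrays a group, and spleen arrays on 1 slide, slide and group were only partly separable.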
